A study of Mus musculus with 2 samples.

Results

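The proteasome is the protease of the cytosol and nucleus that degrades ubiquitin-tagged proteins. Its genes were taken from the expression table of mouse primordial germ cells (PGCs) by symbol, as all Psma, Psmb, Psmc, Psmd, Psme and Psmg genes with a number, Psmf1 and Pomp. The rule found 46 of 18877 genes, and used no measured value. In the GENCODE M21 annotation 49 genes matched it, and the 3 without a row (Psmb8, Psmb9 and Psmb11) were not analysed here. PGCs are the embryonic precursors of oocytes and sperm. Total RNA was measured in a single group of 2 libraries of untreated PGCs of strain C57BL6 at embryonic day 9.5, purified with an SSEA1 antibody and numbered replicate 1 and replicate 2. By the methods, dissected gonads were dissociated and PGCs were taken either by flow cytometry for CD61 and SSEA1 or with SSEA1 beads. The embryos are described as female, and the Y-linked gene Ddx3y had 7.32 TPM (362 reads) in replicate 1 and 5.35 TPM (93 reads) in replicate 2. The replicates are described as biological, but no source used here says whether they came from separate litters or sorts.

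Levels are TPM, in which reads are divided by the gene's length and scaled to a fixed total per library, so that genes can be compared per base of length. Replicate 1, with 15912466 recovered reads, was deeper and so had less counting error than replicate 2, with 5458695. All 8 PGC markers reached 1 TPM in each library, led by Dppa3 with 5013 and 5075 TPM. Of other cell types, 4 of 8 leukocyte markers were in the table and summed to 19.4 and 9.53 TPM, with C1qb at 0 in replicate 2. Erythroid markers (7 of 8 in the table) summed to 4002 and 3780 TPM, and endothelial markers (5 of 6) to 12.9 and 11 TPM, with Emcn at 0 in replicate 2. Most of the endothelial sum was Pecam1 (8.23 and 9.99 TPM), the sole marker of that list to reach 1 TPM in each library. In RNA pooled from many cells, fewer cells of a type and less RNA per cell cannot be told apart. With 1 group no difference between conditions could be tested. Intervals given are exact 95% intervals of recovered reads, which cover counting error only.

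The proteasome is built of a barrel, the 20S core, made of stacked rings of alpha and beta subunits, and of caps that bind its ends. The 19S cap recognises ubiquitin chains, unfolds the substrate with a ring of ATPases and feeds it into the core, where Psmb5, Psmb6 and Psmb7 cut it with an N-terminal threonine. In immune cells and under interferon gamma these are replaced by Psmb8, Psmb9 and Psmb10, which alters the peptides that are made, including those presented on MHC class I molecules.

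The catalytic subunits are the basis of the comparison below. Shown are the first 60 bases of coding sequence from the codon of the catalytic threonine, which is in capitals, on GRCm38 with GENCODE M21 transcripts and read 5′ to 3′. The codon is number 60 of the coding sequence in Psmb5, 34 in Psmb6, 44 in Psmb7 and 40 in Psmb10. The stretch spans an intron in all but Psmb6, so the genomic interval is longer than the sequence. The intervals are chr14:54616783-54617814 on the minus strand for Psmb5, chr11:70525885-70525944 on the plus strand for Psmb6, chr2:38642243-38643384 on the minus strand for Psmb7 and chr8:105937559-105937705 on the minus strand for Psmb10.
Psmb5: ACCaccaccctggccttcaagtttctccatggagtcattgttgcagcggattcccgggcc
Psmb6: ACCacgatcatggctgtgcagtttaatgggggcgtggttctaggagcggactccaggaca
Psmb7: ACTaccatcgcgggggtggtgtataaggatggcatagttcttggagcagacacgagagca
Psmb10: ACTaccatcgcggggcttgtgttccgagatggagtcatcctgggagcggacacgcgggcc
Over the whole coding sequence Psmb7 and Psmb10, which occupy the same place in the beta ring, were 64.6% identical, and their longest shared run was 15 bases. The other pairs among these genes were 62.4% to 64.7% identical, with runs of 9 or 10 bases, so these genes can be told apart by sequencing reads over most of their length.

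All 3 constitutive catalytic genes were expressed well above the immune gene Psmb10 in both libraries. Psmb6, the caspase-like subunit, was the most abundant of all proteasome genes, at 2574 TPM (45810 reads) in replicate 1 and 2420 TPM (15147 reads) in replicate 2. Psmb5, the chymotrypsin-like subunit, had 327 TPM (2791 reads) and 285 TPM (856 reads). Psmb7, the trypsin-like subunit, had 99.7 TPM (3242 reads) and 102 TPM (1167 reads). Under the deposited length these levels do not overlap between genes, although the order of Psmb5 and Psmb7 turned in replicate 2 under another length, and Psmb5 has a near-identical copy, both described below. Psmb6 exceeded Psmb7 by 25.8-fold (interval 24.9 to 26.8) in replicate 1 and 23.7-fold (22.3 to 25.2) in replicate 2.

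Psmb10, the immune counterpart of Psmb7, was present at a low level. It had 10.9 TPM (177 reads, interval 9.37 to 12.7) in replicate 1 and 11.8 TPM (67 reads, interval 9.11 to 14.9) in replicate 2, so the replicates were within counting error of each other. Psmb7 exceeded Psmb10 by 9.13-fold (interval 7.85 to 10.7) in replicate 1 and 8.68-fold (6.78 to 11.3) in replicate 2. The ratio to Psmb10 was 29.9 (25.7 to 35.0) and 24.2 (18.9 to 31.6) for Psmb5, and 236 (203 to 275) and 206 (162 to 266) for Psmb6. The mean log2(TPM + 1) of the constitutive genes was above Psmb10 by 5.20 in replicate 1 and by 5.02 in replicate 2, or 5.11 ± 0.128 (SD, n = 2). Because Psmb10 is the sole immune subunit with a row, nothing is said here of the Psmb5 and Psmb8 or the Psmb6 and Psmb9 pairs.

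**Figure D1:**
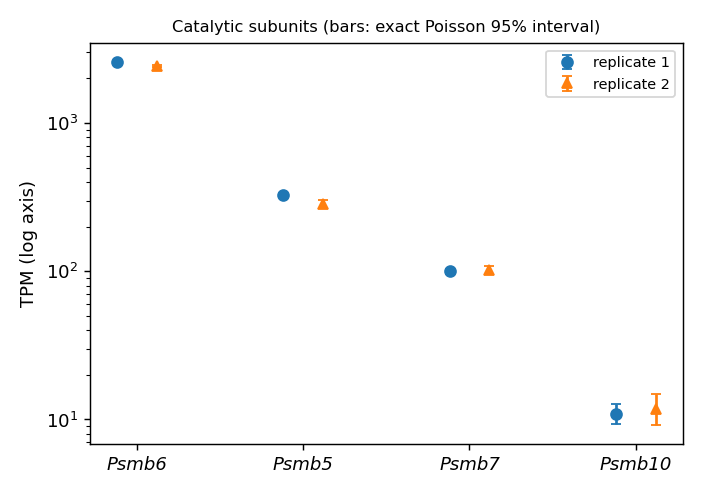
TPM on a log axis of the constitutive catalytic genes Psmb5, Psmb6 and Psmb7 and of the immune gene Psmb10, for each replicate, with exact 95% counting intervals as vertical lines. Psmb10 lies near 11 TPM in both replicates, below Psmb7, the lowest of the constitutive genes, near 100 TPM.

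Genes of the interferon response and of antigen presentation were examined next. Of a list of 10 interferon and antigen presentation genes, 6 were in the table and 4 reached 1 TPM in each library. The interferon-responsive transcription factor Irf1 had 7.09 and 7.45 TPM, and the interferon gamma receptor gene Ifngr1 had 4.58 and 1.996 TPM. B2m, the light chain of MHC class I, had 20.1 TPM (164 reads) in replicate 1 and 8.35 TPM (24 reads) in replicate 2, whereas the heavy chain gene H2-K1 had 4.80 and 6.77 TPM. H2-D1, another heavy chain gene, had 1.26 and 0.348 TPM, and the receptor gene Ifngr2 had 0.730 and 0.181 TPM. All 4 leukocyte markers in the table were lower in replicate 2, where 51.3% of all genes, some of them at 0 in both libraries, were. Of these markers, Fcer1g had a ratio of replicate 2 to replicate 1 of 0.562 (interval 0.319 to 0.940). The intervals of Tyrobp (0.0851 to 1.53) and C1qb (12 and 0 reads) reached above 1, and Csf1r had no interval. The ratio was 0.416 (0.259 to 0.641) for B2m and 1.08 (0.800 to 1.43) for Psmb10. The part that leukocytes played in the level of Psmb10 was not tested.

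The 7 genes of the standard alpha ring, which forms the gate of the barrel, were expressed within 5.04-fold of each other in replicate 1 and 4.48-fold in replicate 2. Psma2 was highest, with 1395 and 1294 TPM, followed by Psma6 with 1003 and 910 TPM and Psma5 with 786 and 834 TPM. Psma1 was lowest under the deposited length, with 277 and 289 TPM. With the length of the principal coding transcript the range narrowed to 2.73-fold and 2.74-fold, and Psma1 (486 and 506) was above Psma3 (460 and 425). Psma8, which replaces Psma7 in the proteasome of spermatocytes, was expressed at 20.1 and 12.2 TPM, against 442 and 395 TPM for Psma7. Psma7 thus exceeded Psma8 by 21.9-fold and 32.4-fold, or by 50.01-fold and 73.8-fold with the length of the principal coding transcript. No counting interval is given because neither gave whole reads, so the annotated lengths of these genes may not be those used by the authors.

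The 4 beta genes without a catalytic site showed a wider range than the alpha ring. Psmb1 had 1946 and 1931 TPM, Psmb2 had 1147 and 1033 TPM, Psmb3 had 355 and 308 TPM, and Psmb4 had 207 TPM in each library. Every standard core particle holds equal numbers of each alpha and beta subunit, yet the highest of the 14 genes (Psmb6) exceeded the lowest (Psmb7) by the 25.8-fold and 23.7-fold given above. The SD across these 14 genes was 1.33 log2 units in replicate 1 and 1.31 in replicate 2. Across the 8 genes of the CCT chaperonin, another ring complex of unlike subunits in equal number, it was 0.98 and 1.01, with a highest to lowest ratio of 6.66 and 6.55. These are transcript levels, and subunit protein was not measured.

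**Figure D2:**
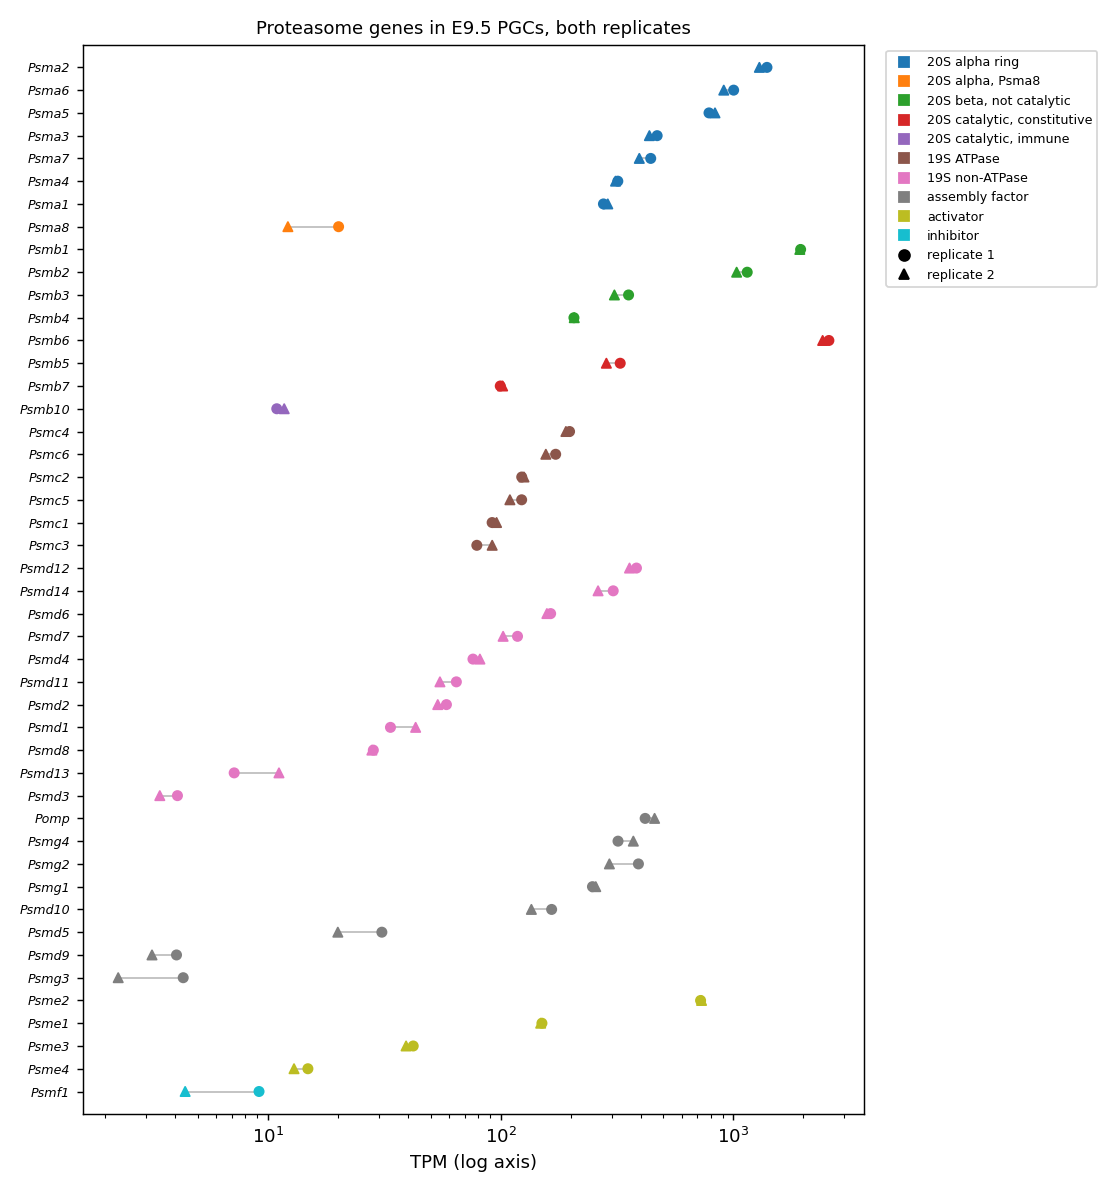
TPM on a log axis of all 46 proteasome genes by role, with circles for replicate 1 and triangles for replicate 2. The 20S core genes other than Psma8 and Psmb10 lie near or above 100 TPM in both replicates, and the 19S ATPases lie in a narrow band between 79.0 and 198 TPM.

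The 19S cap was expressed at a lower level than the core. Over its 17 genes replicate 1 gave a median log2(TPM + 1) of 6.54 and replicate 2 of 6.60 (6.57 ± 0.0442, SD, n = 2), against 8.63 and 8.46 for the 16 core genes (8.55 ± 0.123). The 19S median minus the 20S median was −2.09 and −1.86 log2 units (−1.98 ± 0.167). The median of all 18877 genes was 1.89 and 1.85.

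The 6 ATPases, which unfold the substrate, had the narrowest range of the groups of subunits under the deposited length. Psmc4 had 198 and 191 TPM, Psmc6 had 172 and 156 TPM, and Psmc2 had 123 and 126 TPM. Psmc5 had 123 and 110 TPM, Psmc1 had 92.0 and 96.1 TPM, and Psmc3 was lowest, with 79.0 and 92.0 TPM. The highest exceeded the lowest by 2.50-fold in replicate 1 and 2.07-fold in replicate 2. With the length of the principal coding transcript, taken up below, these were 3.11-fold and 3.06-fold, wider than the alpha ring.

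In contrast, the levels of the 11 non-ATPase genes were widely spread. The scaffold subunit gene Psmd12 was highest under the deposited length, with 384 and 358 TPM. Psmd14, the deubiquitinase that removes the ubiquitin chain from the substrate, had 305 and 262 TPM, and Psmd6 had 164 and 158 TPM. At the low end Psmd8 had 28.4 and 28.0 TPM, and Psmd13 had 7.16 TPM (230 reads) and 11.2 TPM (126 reads). Psmd3 was lowest, with 4.09 TPM (193 reads) and 3.43 TPM (57 reads). Psmd12 exceeded Psmd3 by 93.8-fold (interval 81.4 to 109) in replicate 1 and 104-fold (80.3 to 138) in replicate 2, although both encode scaffold subunits present once in each cap. Psmd4, the ubiquitin receptor of the cap, had 76.1 and 81.5 TPM, and the large subunits Psmd1 and Psmd2 had 33.6 and 43.1 TPM and 58.5 and 53.7 TPM.

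Factors that build the particle were split into a high and a low set. Pomp, which matures the beta ring and is degraded by the finished core, had 418 and 459 TPM. Of the alpha ring chaperones Psmg1 had 248 and 256 TPM, Psmg2 had 391 and 293 TPM, and Psmg4 had 320 and 372 TPM. Psmg3, the partner of Psmg4, had only 4.33 TPM (119 reads) and 2.27 TPM (22 reads), the lowest percentile of all proteasome genes under the deposited length (54.1). Of the chaperones of the 19S base, Psmd10 had 166 and 136 TPM, Psmd5 had 30.9 and 19.98 TPM, and Psmd9 had 4.05 and 3.18 TPM.

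The activators, which open the core in place of the 19S cap, also differed. Psme1 and Psme2 form the PA28 alpha-beta ring, an interferon-inducible activator. Psme2 had 723 and 730 TPM and Psme1 had 151 and 149 TPM, a ratio of 4.81 (interval 4.62 to 4.999) and 4.91 (4.60 to 5.25). Psme3, the nuclear PA28 gamma, had 42.1 and 39.3 TPM. Psme4, the PA200 activator, had 14.9 and 13.0 TPM. Psmf1, the PI31 protein that inhibits the core in vitro, had 9.16 TPM (561 reads) and 4.41 TPM (95 reads).

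Several members have copies elsewhere in the genome that can share reads with them. The principal coding transcript of each member, with its untranslated ends, was searched against the transcripts of other genes. A match needed 95% identity or more over a stretch at least 50% as long as the member's coding sequence. By this search 15 other genes matched 9 members, and 12 of the 15 were in the table. For Psma3 the processed pseudogene Gm13835 (chr6:31141979-31142663) matched without a mismatch over 665 bases. It was listed at 1985 and 1720 TPM, equal to 12924 and 3940 reads, against 17421 and 5676 reads for Psma3. A window of Psma3 that is identical in Gm13835 is shown in full, taken from chr12:70984724-70986900 on the plus strand and joined across an intron, which a processed pseudogene lacks. No capitals are used because no base differs.
Psma3: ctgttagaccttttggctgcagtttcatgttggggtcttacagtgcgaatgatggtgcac

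Psme2 has a protein-coding copy on chromosome 11, Psme2b, that is outside the rule. The coding sequences were 99.3% identical and differed at 5 positions, counted from the first coding base with the base of Psme2 first: C312T, A369G, C489T, C519T and C543T. Psme2b had 340 TPM (2709 reads) and 338 TPM (945 reads), or 22.3% and 21.9% of the reads of Psme2. The stretch with most differences is shown, with the differing bases in capitals, from chr14:55588049-55588276 for Psme2 and chr11:48945576-48945665 for Psme2b, both on the minus strand.
Psme2: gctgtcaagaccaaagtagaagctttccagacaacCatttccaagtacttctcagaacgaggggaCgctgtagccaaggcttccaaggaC
Psme2b: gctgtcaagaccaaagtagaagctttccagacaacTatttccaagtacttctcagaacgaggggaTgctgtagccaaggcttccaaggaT
The pseudogene Gm3375 matched Psmb5 at 98.9% and had 202 and 170 TPM, equal to 54.6% and 52.9% of the reads of Psmb5. For Psma5 the pseudogenes Gm12989 and Gm8394 had 9.89% and 5.96% of its reads in replicate 1 and 8.88% and 6.68% in replicate 2. How the counting divided reads between these genes is not given in the sources used here, so the levels of Psma3, Psma5, Psmb5 and Psme2 are uncertain to that extent. Psmb6, Psmb7 and Psmb10 had no copy within these limits of identity and length. Pseudogenes with similar names were in the table. Psmb6-ps2 had 27.0 TPM (181 reads) and 30.1 TPM (71 reads), and Psmb7-ps2 had 0 in each library.

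Overlap with neighbouring genes was a further limit. In all, 11 members shared exonic bases with another gene. The largest share was 25.5% of the exonic bases of Psmd9 with Gm26745 on the opposite strand, followed by 12.1% of Psmb5 with Mir686 on its own strand and 11.8% of Psmb7 with Nek6 on the opposite strand. Reads of opposite strands cannot be told apart if strand was not used.

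The length by which reads are divided also set some of the order. The deposited TPM matched a length of all exonic bases of a gene. With the length of the principal coding transcript in its place, a choice made after seeing the data, Psmb5 exceeded Psmb7 by 1.11-fold in replicate 1 and was 0.946 times it in replicate 2, compared with 3.28 and 2.79 under the deposited length. The order of Psmb5 and Psmb7 thus depended on the length in replicate 2. Psmb7 still exceeded Psmb10, by 20.7-fold and 19.7-fold, and Psmd12 exceeded Psmd3 by 56.5-fold and 62.8-fold.

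**Figure D3:**
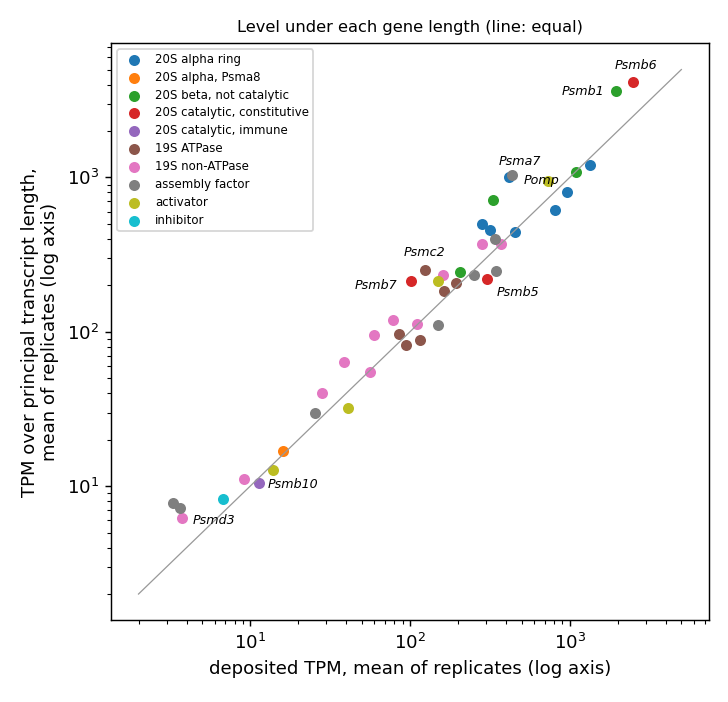
Mean level of each of the 46 proteasome genes under the deposited TPM (horizontal, log axis) and under the length of the principal coding transcript (vertical, log axis), with equality as a line and points coloured by role. Psmb7 lies above the line and Psmb5 below it, and Psmb10 stays near 11 TPM under both.

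Across the 46 genes the level fell with transcript length, with Spearman's rho −0.47, compared with −0.30 across 9509 protein-coding genes whose mean TPM reached 1. Within the 14 standard core genes rho was 0.055. These are correlations across genes that share both libraries. The length here is that of the principal coding transcript, whereas the deposited TPM is divided by all exonic bases. With levels divided by the principal transcript length, rho was −0.49 for the 46 genes, −0.34 for the 9509 and −0.086 for the 14. Those levels contain the length they are compared with.

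As a set, proteasome genes were highly expressed. All 46 reached 1 TPM in each replicate, where 60.0% of all genes did. At least 5 TPM was reached by 42, and the share of all genes at that level was not computed. Measured by mean TPM, 29 were at 100 or above, and the lowest of these, Psmb7, lay at percentile 93.7 of all genes. In all, 34 were above the 90th percentile of all genes. Their TPM summed to 1.60% of the total in replicate 1 and 1.52% in replicate 2. Their median log2(TPM + 1) was 7.37 and 7.26, between those of 78 mitochondrial ribosomal protein genes (6.27 and 6.20) and 83 cytosolic ribosomal protein genes (9.29 and 9.40). The proteasome genes lay on 16 chromosomes, with 8 on chromosome 11, 6 on chromosome 2 and 5 on chromosome 14, where Psme1 and Psme2 are neighbours. The share of all genes on each chromosome was not computed, so these counts do not show clustering.

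The replicates were then compared gene by gene, which describes these 2 libraries only. On the log2(TPM + 1) scale no proteasome gene was over 2-fold apart, where 10.2% of all genes were. The median of all genes was only 2.71 and 2.61 TPM, against 165 and 153 TPM for proteasome genes. Other highly expressed sets were alike, with 0 of 83 cytosolic ribosomal, 1 of 78 mitochondrial ribosomal and 0 of 8 CCT genes over 2-fold apart. In replicate 2, 31 of the 46 were lower, where 51.3% of all genes and 7058 of the 12896 genes whose mean TPM reached 1 were. Of the 36 with whole reads in both and at least 1000 reads over both libraries, 17 had a ratio of replicate 2 to replicate 1 whose interval lay under 1, where 38.9% of 2792 such genes did, and 5 had one above 1, where 18.7% did. These counts were not tested.

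The ratios below are of genes with whole reads. The ratio of replicate 2 to replicate 1 was 0.481 (interval 0.383 to 0.599) for Psmf1, 0.526 (0.317 to 0.833) for Psmg3 and 0.647 (0.585 to 0.714) for Psmd5. Of the genes without whole reads, Psma8 had 20.1 and 12.2 TPM and Psmg2 391 and 293 TPM. In the other direction Psmd13 had a ratio of 1.56 (1.24 to 1.94) and Psmd1 of 1.28 (1.19 to 1.38). Of the constitutive catalytic genes, Psmb5 had a ratio of 0.872 (0.807 to 0.942), and Psmb6 and Psmb7 were closer to 1. Of the ribosomal protein genes, 15 of 83 were lower in replicate 2, and of the mitochondrial ones 45 of 78.

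**Figure D4:**
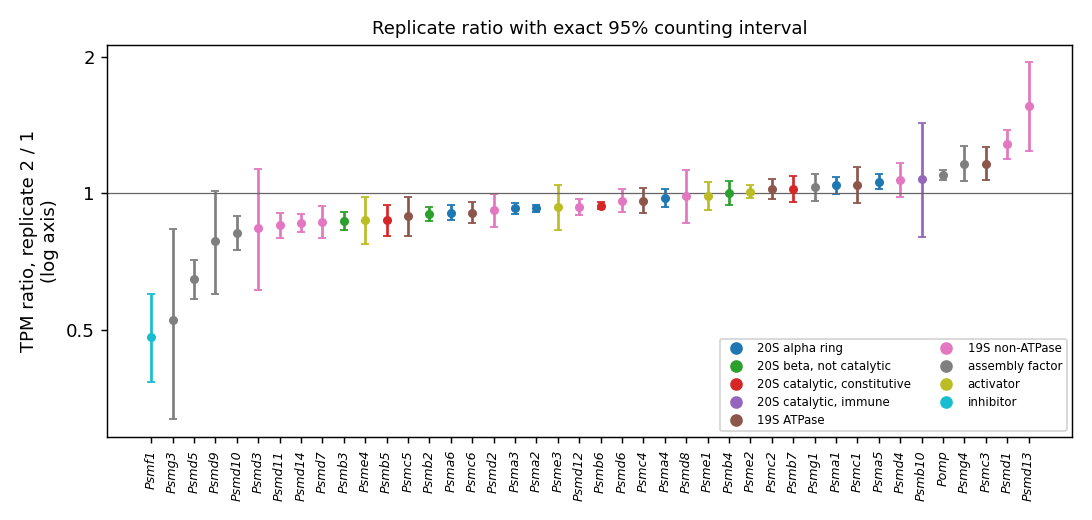
Ratio of TPM in replicate 2 to replicate 1 for the proteasome genes with whole reads, with exact 95% counting intervals. Psmf1 and Psmg3 lie lowest, at 0.481 and 0.526, and Psmd13 highest, at 1.56.

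Proteins that bind the particle but fall outside the rule were also expressed. Of 11 listed names, 8 were in the table and all 8 reached 1 TPM in each library. Sem1, a small 19S subunit, had 203 and 208 TPM, just above the highest ATPase. The ubiquitin receptor gene Adrm1 had 25.2 and 23.4 TPM. The deubiquitinase genes Uchl5 and Usp14 had 146 and 139 TPM and 40.9 and 25.5 TPM. Akirin2, which brings proteasomes into the nucleus, had 39.5 and 45.3 TPM, and the thioredoxin-like gene Txnl1 had 153 and 178 TPM. Ecpas had 12.7 and 12.3 TPM, and the ubiquitin ligase gene Ube3c had 5.03 and 5.01 TPM.

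Upstream of the proteasome, the polyubiquitin gene Ubb had 3065 and 3060 TPM, above Psmb6. Rps27a, which encodes ubiquitin fused to a ribosomal protein, had 926 and 990 TPM. The activating enzyme genes Uba1 and Uba6 had 62.7 and 63.0 TPM and 17.3 and 12.2 TPM. The 7 shuttle factor genes, which carry ubiquitinated proteins to the cap, ranged from 3.01 TPM (Ddi2) to 21.4 TPM (Ubqln1).

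Nfe2l1 is the transcription factor that raises proteasome genes when the proteasome is inhibited. It had 4.76 and 7.09 TPM, and its relative Nfe2l2 had 22.4 and 20.1 TPM. The genes that process Nfe2l1 were at 3.31 and 3.25 TPM for Ngly1, 4.33 and 3.01 TPM for Ddi2, and 15.8 and 10.5 TPM for Vcp.

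Promoters were examined for what the genes share in sequence. RefSeq promoters of GRCm38.p6 (300 bases around the start) were matched for 38 of the 46 genes. The motif TGACNNNGC, the core of the antioxidant response element that Nfe2l1 binds, was sought on both strands. Of all 27025 genes with a promoter 13.99% had it, and of the proteasome genes 6 of 38 (15.8%) did. These were Psmb5, Psmb6, Psmc6, Psmd12, Psmd9 and Psme4. CCAAT occurred in 12 (31.6%, against 41.1%) and TATAA in 5 (13.2%, against 28.0%), and 1 promoter could hold several motifs. The shares of all genes include unexpressed genes, and shares among expressed genes alone were not computed. A match is a description and not a binding site. The median number of CpG sites was 19, compared with 7 over all promoters and 21 over those of genes whose mean TPM reached 1. Psmb10 and Psma6 had the fewest, with 3 each, although Psma6 was expressed at 1003 and 910 TPM.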

How the data were processed

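Per the methods, the authors aligned reads to mouse genome mm10 with Hisat2, counted them with featureCounts and deposited TPM per gene. The submitters' processing notes also name Bowtie2, RSEM, R 3.4.2 and DESeq2, with no role. Annotation, strand handling and the treatment of multimapping reads are not given in the sources used here. The methods describe Smart-seq2 libraries of sorted cells, the labels a NEBNext kit. TPM is relative: abundant or very short genes lower all others.

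Symbols were matched to GENCODE M21 (GRCm38), with 1 identifier for 18748. TPM times exonic length gave whole reads (within 0.02) for 96.7% and 95.8% of values under 50 reads, against 4% by chance. Of the members 42 gave whole reads in both libraries (not Psma7, Psma8, Psmb1 and Psmg2). Recovery was also run on simulated data. The simulation drew and recovered reads with the same lengths, so it cannot show whether the authors' annotation had these lengths. Values were analysed as log2(TPM + 1), which understates differences of low genes. No test between groups was possible. Every member could be named, with values of all catalytic, tissue-specific, activator, inhibitor and assembly genes, of the 3 highest and 3 lowest of each other subunit group, and of the listed context genes, some of which are not reported here. Other members named were chosen after their values were seen. Members and lists were chosen with earlier results of these data known. Alternatives were a pseudocount of 0.1, low-value filters, other scalings, other members, another gene length and leaving out each replicate. Copies were sought with blastn 2.17.0. Analyses used Python 3.11.15, numpy 2.4.6, pandas 2.3.3, scipy 1.17.1 and matplotlib 3.10.9.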

Additional observations from a re-analysis of the deposited data

How the results depend on the processing

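No paired analysis was possible because the samples form 1 group. Of 67 alternatives over 10 results, 49 stayed within the replicate SD or count limit, 18 moved and 0 reversed. With 2 libraries, leaving out a replicate cannot move a mean by more than the SD, so it says nothing of stability. Median-of-ratios scaling shifts the 2 replicates in opposite directions, so it almost cancels in a mean over both. The filter at a mean TPM of at least 1 removed no member. Median levels, SDs, shares and counts could not change sign here, so for them the lack of reversals carries no information. The constitutive minus immune difference (5.11 log2 units) was 5.65 with the length of the principal transcript. With summed TPM it was 7.88, but this sets the sum of 3 genes, most of it Psmb6, against Psmb10 alone. The Psmb7 to Psmb10 difference (3.05) was 3.14 with a pseudocount of 0.1 and 4.21 with the length of the principal transcript. Rescaling TPM over genes of at least 200 exonic bases gave medians of 8.76 for the 20S core, 6.78 for the 19S cap and 7.82 for assembly factors, and a share of total TPM of 1.81%. The principal transcript length gave 9.11, 6.71 and 7.33, and a 19S minus 20S difference of −2.40. Without Psma8 and Psmb10 the 20S median was 8.77. Without members that have a near-identical copy it was 8.71, the 19S median was 6.83 and the SD across standard core genes was 1.58. With a pseudocount of 0.1, 1 gene (Psmf1) was over 2-fold apart between replicates, and by reads the share was 2.43%. The gene length and copy alternatives were chosen after seeing the data. With 2 libraries the SD itself is imprecise. Depth limits Psmg3, Psmd3 and Psmb10 most, with 22, 57 and 67 reads in replicate 2.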
